A study of Mus musculus with 8 samples.

Results

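The genes described here are the classical guidance ligands and receptors: the semaphorins of classes 3 to 7 and their plexin receptors, the Slits and their Robo receptors, the netrins and their receptors Dcc, Neo1 and Unc5, and the ephrins and their Eph receptors. They were chosen by gene symbol, and 71 of the 32432 genes and unnamed accessions on the array met this rule, with 92 probes among 39429. Their levels were followed in forebrain microvessels of the mouse, which had been freed by homogenising the tissue, sedimented on a density step and filtered to recover particles under 70 µm. The mice were 5 days old (P5), 10 days old (P10) or adult, and each age had 2 replicates. Total RNA from a pair of ages was hybridised on each of 8 two-colour Agilent arrays. The 4 arrays of a slide, which is 1 replicate, set P5 beside adult, P10 beside adult in either dye order, and P5 beside P10. The labels give the tissue and the age of each sample and name no strain, genotype or treatment, and what animals or pools stand behind a replicate is not stated, so that a p-value covers no more than the spread of these samples, which can be technical.

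These families were first described as cues that attract or repel growing axons, and the same proteins act on the sprouting tips of blood vessels. A ligand on one cell or in the matrix binds a receptor on the next, and the receptor reshapes the actin skeleton through small GTPases. In endothelium the best known pairs are Sema3e with Plxnd1, netrins with Unc5b, Slits with Robo1 and Robo4, and ephrin-B2 of arteries with Ephb4 of veins, whereas neurons and glia use nearly all of the families.

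The arrays of a slide were in accord with each other for these genes. Across the members, which are genes and not replicates, the direct P5/P10 array correlated with the difference of the other pairings at r = 0.973 on slide 1 and r = 0.974 on slide 2, and the dye-exchanged P10/adult array ran opposite to its partner at r = -0.913 and r = -0.91. Between 65.2% and 73.3% of the non-control spots of a channel were well above background. Endothelial marker genes were present at every age, with a mean fitted log2 signal over 20 genes of 11.62 and 11.80 at P5, 12.90 and 13.15 at P10, and 13.87 and 14.11 in adults. Neuronal, glial, fibroblast and red blood cell markers were measured too, and their values are given with the marker lists. In such a mixed sample, fewer cells of a type and less RNA per cell cannot be told apart.

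Most guidance genes that differed between adult and P5 microvessels were lower in the adult. Of the 71 genes, 68 could be tested, and 12 rose and 39 fell in adult against P5 microvessels at an adjusted p below 0.05 in limma, while 17 did not pass. Over all 21941 genes tested, 53.1% were called in this comparison, with 23% higher and 30.1% lower in the adult. The shares of the guidance genes were 17.6% higher and 57.4% lower, and their median log2 ratio of adult over P5 was -0.54, against -0.09 over all genes tested. At least 2-fold, 9 members rose and 19 fell, against 6.54% higher and 12.7% lower among all genes. The calls lean less to one side when arrays are centred on their median in place of loess: that scaling moved the median of all genes from -0.09 to 0.07 and gave 15 members higher and 25 lower, so that 37.5% of the called members were higher, against 23.5% with loess. The share moved for all called genes too, of which 53.4% were higher with that scaling, against 43.4% with loess. The 2 replicates gave the same sign for 65 of the 68 members, and the fitted levels of the adult and P5 samples did not overlap for 60 members (88.2%), against 69% of all genes tested.

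Values given are fitted log2 signals of a gene's brightest probe, with replicate 1 before replicate 2, and log2 ratios of the older over the younger age. A signal depends on the probe, so levels are compared only within a gene.

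**Figure D1:**
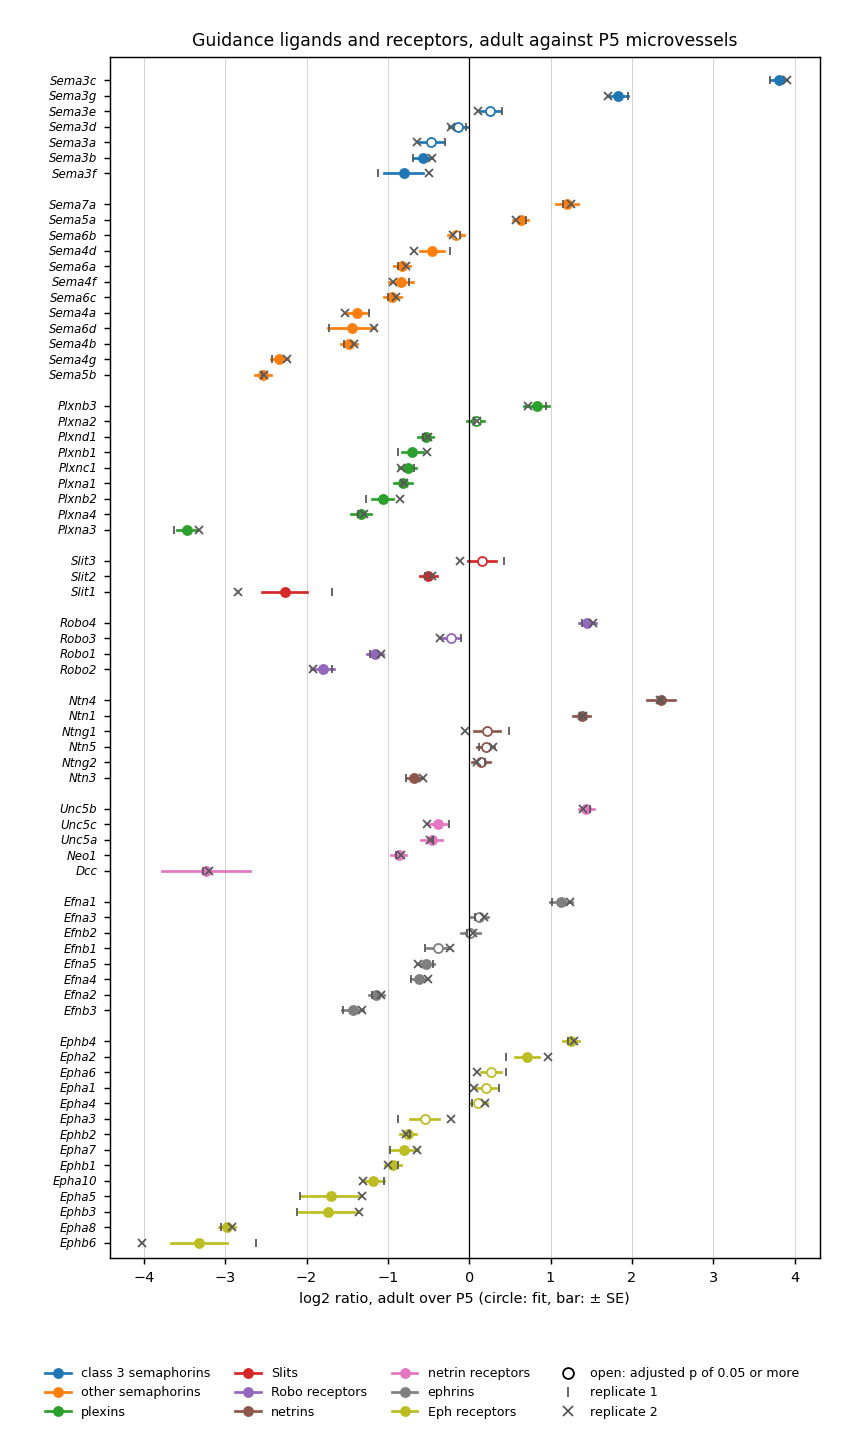
Log2 ratio of adult over P5 for the 68 guidance genes tested, grouped by family, with the fitted value as a circle, its standard error as a bar and the 2 replicates as small marks. Filled circles passed the test, and 12 of these lie right of 0 and 39 left of it, from 3.80 for Sema3c to -3.47 for Plxna3.

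The 3 members that rose most in the adult against P5, and 3 of the 4 that fell most, are shown by the 250 bases before their start, from the RefSeq table of build GRCm38.p6, because genes that moved in opposite directions can then be set side by side. Capitals mark the GC box (GGGCGG), the ETS core (CGGAAG), the SOX core (ACAAT) and the TATA box (TATAAA), each searched on both strands, so that the capitals can also spell its reverse complement. GC boxes bind Sp-type factors, and ETS and SOX factors include several that act in endothelium. Sema3c (chr5:17574566-17574815, plus strand), Ntn4 (chr10:93640799-93641048, plus strand) and Sema3g (chr14:31217623-31217872, plus strand) rose. Plxna3 (chrX:74328816-74329065, plus strand), Ephb6 (chr6:41605261-41605510, plus strand) and Epha8 (chr4:136956817-136957066, minus strand) fell.
Sema3c: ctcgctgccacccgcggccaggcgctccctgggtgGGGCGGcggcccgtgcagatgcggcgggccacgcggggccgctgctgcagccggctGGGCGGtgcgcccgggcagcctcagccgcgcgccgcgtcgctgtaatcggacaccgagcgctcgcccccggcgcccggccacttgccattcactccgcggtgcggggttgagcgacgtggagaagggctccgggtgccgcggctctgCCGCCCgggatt
Ntn4: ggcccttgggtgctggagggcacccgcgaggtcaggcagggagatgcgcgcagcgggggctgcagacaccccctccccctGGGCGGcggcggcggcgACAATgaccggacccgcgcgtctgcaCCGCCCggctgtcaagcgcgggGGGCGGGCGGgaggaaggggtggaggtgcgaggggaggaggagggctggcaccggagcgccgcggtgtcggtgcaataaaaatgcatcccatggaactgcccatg
Sema3g: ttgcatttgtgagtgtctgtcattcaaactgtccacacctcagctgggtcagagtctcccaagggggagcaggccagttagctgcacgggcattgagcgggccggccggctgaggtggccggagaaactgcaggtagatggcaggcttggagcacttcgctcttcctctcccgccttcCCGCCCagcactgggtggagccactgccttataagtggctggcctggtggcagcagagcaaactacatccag
Plxna3: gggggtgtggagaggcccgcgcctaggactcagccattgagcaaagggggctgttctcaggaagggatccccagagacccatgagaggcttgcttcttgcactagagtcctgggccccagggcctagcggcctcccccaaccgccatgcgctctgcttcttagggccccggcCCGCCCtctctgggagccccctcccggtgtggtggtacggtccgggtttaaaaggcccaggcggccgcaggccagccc
Ephb6: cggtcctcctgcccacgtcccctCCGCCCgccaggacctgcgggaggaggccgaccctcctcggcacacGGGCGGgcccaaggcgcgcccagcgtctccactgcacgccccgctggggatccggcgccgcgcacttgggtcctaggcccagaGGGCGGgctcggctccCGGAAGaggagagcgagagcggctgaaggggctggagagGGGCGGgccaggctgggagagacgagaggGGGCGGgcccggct
Epha8: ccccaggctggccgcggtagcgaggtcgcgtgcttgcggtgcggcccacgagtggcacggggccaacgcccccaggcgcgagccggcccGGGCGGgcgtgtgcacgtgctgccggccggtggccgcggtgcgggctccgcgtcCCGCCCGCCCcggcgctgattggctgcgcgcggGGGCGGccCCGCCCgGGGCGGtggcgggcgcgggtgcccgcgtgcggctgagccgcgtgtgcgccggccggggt
GC boxes stood in all 6 windows, both in the genes that rose (3 in Sema3c, 4 in Ntn4 and 1 in Sema3g) and in those that fell (1 in Plxna3, 5 in Ephb6 and 6 in Epha8), and 2 of those in Ntn4 and 2 in Epha8 overlap. The SOX core was found in Ntn4 and the ETS core in Ephb6, and TATAAA stood in none of the 6. Among the 48 tested members with 1 promoter entry, 33 (68.8%) held a GC box, against 41.8% of 14731 protein-coding genes with 1 entry and 32.7% of all 32851 promoters of this length. The share was 6 of 7 among members at least 2-fold higher in the adult and 8 of 10 among those at least 2-fold lower. Member promoters were also richer in G and C, with a median of 65.4% against 54.8% of the protein-coding genes, and the GC box is itself made of these letters. Fewer of them held the ETS core (8.33% against 17%), the TATA box (4.17% against 13.2%) and the SOX core (16.7% against 26.7%). These are descriptions of letters in a window, with no test.

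Among the secreted ligands, the class 3 semaphorins, which act through neuropilins and plexins, held the member with the highest adult over P5 ratio. Sema3c, which guides cells of the developing heart and its vessels, had fitted log2 signals of 9.99 and 10.00 at P5, 10.59 and 10.81 at P10, and 13.69 and 13.91 in adults. Both adult samples lay far above all 4 younger ones, and the log2 ratio of adult over P5 was 3.80 ± 0.11 (SE, adjusted p = 0.000526), or 14-fold. Most of it came after P10, with a log2 ratio of adult over P10 of 3.10 ± 0.11 (SE, adjusted p = 0.00169) and of P10 over P5 of 0.71 ± 0.11 (SE, adjusted p = 0.012). Sema3g, known to be made by endothelium, took the other course, with 7.61 and 7.70 at P5, 9.21 and 9.41 at P10, and 9.56 and 9.41 in adults. Here P10 and adult samples overlapped and stood above P5, with 1.65 ± 0.12 (SE, adjusted p = 0.00422) for P10 over P5, 1.83 ± 0.12 (SE, adjusted p = 0.001) for adult over P5 and 0.17 ± 0.12 (SE, adjusted p = 0.425) for adult over P10.

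The other class 3 semaphorins had smaller ratios. Sema3f, a ligand of neuropilin-2, fell in adult against P5 microvessels, with log2 ratios of -1.12 and -0.49 in the 2 replicates and a fit of -0.81 ± 0.24 (SE, adjusted p = 0.04). Sema3b had -0.57 (adjusted p = 0.0152). Neither call held with median centring, which gave -0.18 for Sema3f (adjusted p = 0.459) and -0.01 for Sema3b (adjusted p = 0.971), and Sema3f passed under 4 of 9 settings. Sema3e, the ligand of Plxnd1, had 6.66 and 6.86 at P5, 6.75 and 6.69 at P10, and 7.06 and 6.97 in adults, and no comparison passed, with 0.26 ± 0.12 (SE, adjusted p = 0.124) for adult over P5. Sema3a, the first semaphorin found to collapse growth cones, had an adult over P5 ratio of -0.47 (adjusted p = 0.0527), and Sema3d one of -0.13 (adjusted p = 0.362). The family counts for adult against P5 were thus 2 higher, 2 lower and 3 not called of 7. That is 28.6% higher and 28.6% lower, near the 23% and 30.1% of all genes tested.

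The membrane-bound semaphorins of classes 4 to 7 fell in larger number, with 9 lower and 2 higher of 12 tested in adult against P5 microvessels and a median log2 ratio of -0.89. Their shares were 75% lower and 16.7% higher, against 30.1% and 23% of all genes tested. Sema5b, a transmembrane protein with thrombospondin repeats, fell in both steps, with 10.30 and 10.28 at P5, 8.91 and 9.06 at P10, and 7.75 and 7.76 in adults. Its replicates lay close together at every age and the ages did not overlap, and adult over P5 was -2.54 ± 0.10 (SE, adjusted p = 0.000526), or 5.8-fold lower. It was 1 of 2 members at least 2-fold lower in adult than in P10 microvessels, at -1.23 ± 0.10 (SE, adjusted p = 0.00431). Sema4g and Sema4b, of the class 4 transmembrane proteins, had the same shape. The levels of Sema4g were 10.25 and 10.07 at P5, 8.65 and 8.48 at P10, and 7.82 and 7.83 in adults, with -2.33 ± 0.11 (SE, adjusted p = 0.000535) for adult over P5. Sema4b had 9.50 and 9.67 at P5, 8.53 and 8.89 at P10, and 7.96 and 8.25 in adults, with -1.48 ± 0.10 (SE, adjusted p = 0.00103).

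For the other members of these classes the decrease lay before P10 or was small. Sema4a had 11.32 and 11.75 at P5, 9.91 and 10.40 at P10, and 10.09 and 10.22 in adults, so that P10 and adult samples overlapped below P5, and adult over P5 was -1.38 ± 0.13 (SE, adjusted p = 0.00179). Sema6d, a ligand of Plxna1, had 11.46 and 11.24 at P5, 9.50 and 10.49 at P10, and 9.74 and 10.07 in adults, and its P10 samples were about 1 log2 unit apart. Its adult over P5 ratio was -1.45 ± 0.29 (SE, adjusted p = 0.0131) and fell short of the threshold when the background was fitted on every spot (-1.37, adjusted p = 0.0716). Its second kept probe gave -0.08 (adjusted p = 0.564 over all kept probes), so the call rests on 1 probe. Sema6a, a ligand of Plxna2 and Plxna4, fell with log2 ratios of -0.87 and -0.78 in the replicates (-0.82 ± 0.10 (SE, adjusted p = 0.0032)). Sema6c (-0.95), Sema4f (-0.84) and Sema4d (-0.46, adjusted p = 0.0489), the ligand of Plxnb1, also fell, though the Sema4d samples of the 2 ages overlapped. Sema6b did not pass (-0.16, adjusted p = 0.216) in that comparison and fell in P10 against P5 microvessels (-0.48, adjusted p = 0.0196). That fall was -0.01 and did not pass with median centring (adjusted p = 0.98).

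Sema7a and Sema5a went the other way. Sema7a, a lipid-anchored ligand of Plxnc1 and integrins, had 13.14 and 13.06 at P5, 13.19 and 13.51 at P10, and 14.29 and 14.31 in adults. Both adult samples were above all younger ones, with 1.20 ± 0.13 (SE, adjusted p = 0.00278) for adult over P5 and 0.95 ± 0.13 (SE, adjusted p = 0.0136) for adult over P10, whereas P10 over P5 did not pass (0.25, adjusted p = 0.188). The step that passed depended on scaling. With median centring, limma gave 1.07 for P10 over P5, which passed (adjusted p = 0.0102), and 0.80 for adult over P10, which did not (adjusted p = 0.0814). Sema5a, close in structure to Sema5b, was higher in adult than in P5 microvessels at 0.63 ± 0.10 (SE, adjusted p = 0.00662), and the rise lay before P10 (0.86 ± 0.10 (SE, adjusted p = 0.00684)).

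Slit proteins are large secreted ligands of the Robo receptors, and the 3 of them differed. Slit1 fell most, with 11.32 and 12.16 at P5, 9.70 and 9.94 at P10, and 9.63 and 9.31 in adults. All P5 samples lay above the others, and adult over P5 was -2.27 ± 0.28 (SE, adjusted p = 0.00358), or 4.82-fold lower, though the replicates differed in size (-1.69 and -2.84). Slit2 was highest at P10, with 8.17 and 8.27 at P5, 8.39 and 8.69 at P10, and 7.62 and 7.81 in adults. Its adult samples were below all younger ones, at -0.50 ± 0.10 (SE, adjusted p = 0.0142) over P5 and -0.82 ± 0.10 (SE, adjusted p = 0.0108) over P10, and the P10 over P5 ratio of 0.32 did not pass (adjusted p = 0.0622). Slit3 had replicate ratios of opposite sign for adult over P5 (0.43 and -0.12) and passed in no comparison (adjusted p = 0.475).

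Netrins include both members of the matrix and membrane-anchored forms. Ntn4, a laminin-like protein of vascular basement membranes, had 6.77 and 7.37 at P5, 7.91 and 9.06 at P10, and 9.14 and 9.73 in adults. The P5 samples lay below all others, replicate 2 was above replicate 1 at each age, and the ratios within a replicate were 2.37 and 2.35. Adult over P5 was 2.36 ± 0.17 (SE, adjusted p = 0.00111), or 5.14-fold, and both steps passed, with 1.42 ± 0.17 (SE, adjusted p = 0.00763) for P10 over P5 and 0.94 ± 0.17 (SE, adjusted p = 0.0267) for adult over P10. Ntn1, the netrin of midline attraction, also rose in both steps, with 8.07 and 8.43 at P5, 8.86 and 9.10 at P10, and 9.44 and 9.82 in adults and 1.38 ± 0.10 (SE, adjusted p = 0.0011) for adult over P5. A second Ntn1 probe rose by less (0.76, adjusted p = 0.0132 over all kept probes).

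Ntn3 fell (-0.67 ± 0.11 (SE, adjusted p = 0.0068) for adult over P5), and the netrin-G proteins Ntng1 (0.22, adjusted p = 0.306) and Ntng2 (0.15, adjusted p = 0.294), lipid-anchored forms of synapses, did not pass. Ntn5 was well above background in 1 of 4 P5 channels, 0 of 6 P10 channels and 6 of 6 adult channels, so that its P10 value is only a bound. Its probe was kept through its adult channels alone, so a higher adult level was part of how it was chosen. The fitted log2 ratio of adult over P10 was 0.22 and did not pass (adjusted p = 0.248 in limma). The measured means were 6.52 in adult and 6.21 in P10 microvessels.

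Ephrins, which bind Eph receptors on touching cells, gave 1 higher, 4 lower and 3 not called of 8 in adult against P5 microvessels. As shares these are 12.5% higher and 50% lower, against 23% and 30.1% of all genes tested. Efna1, an endothelial ligand of Epha2, had 11.12 and 10.82 at P5, 12.30 and 12.46 at P10, and 12.14 and 12.06 in adults. P5 samples were lowest and P10 samples highest, with 1.40 ± 0.14 (SE, adjusted p = 0.00573) for P10 over P5 and 1.13 ± 0.14 (SE, adjusted p = 0.00377) for adult over P5. The adult over P10 ratio of Efna1 did not pass in limma (-0.28, adjusted p = 0.26). Efnb2, the arterial ephrin, also had its highest levels at P10, with 10.66 and 10.86 at P5, 10.97 and 11.47 at P10, and 10.63 and 10.90 in adults. Its P10 over P5 ratio was 0.46 ± 0.12 (SE, adjusted p = 0.0335), adult over P10 did not pass (-0.45, adjusted p = 0.062), and adult and P5 samples overlapped (0.01, adjusted p = 0.944).

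Efnb3, the midline ephrin of the spinal cord, fell before P10, with 11.27 and 11.47 at P5, 10.13 and 10.15 at P10, and 9.72 and 10.15 in adults and -1.43 ± 0.13 (SE, adjusted p = 0.00182) for adult over P5. Efna2 followed a like course, with 8.31 and 8.34 at P5, 7.43 and 7.58 at P10, and 7.12 and 7.26 in adults and -1.14 ± 0.10 (SE, adjusted p = 0.00153). Efnb1 gave adult over P5 ratios of -0.54 and -0.23, which did not pass (adjusted p = 0.0611), while P10 over P5 did (-0.66 ± 0.13 (SE, adjusted p = 0.0197)). With median centring its P10 over P5 ratio was -0.04 and did not pass (adjusted p = 0.878). Efna4 (-0.61) and Efna5 (-0.53) fell in the adult against P5, and Efna3 did not pass (0.12, adjusted p = 0.375).

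**Figure D2:**
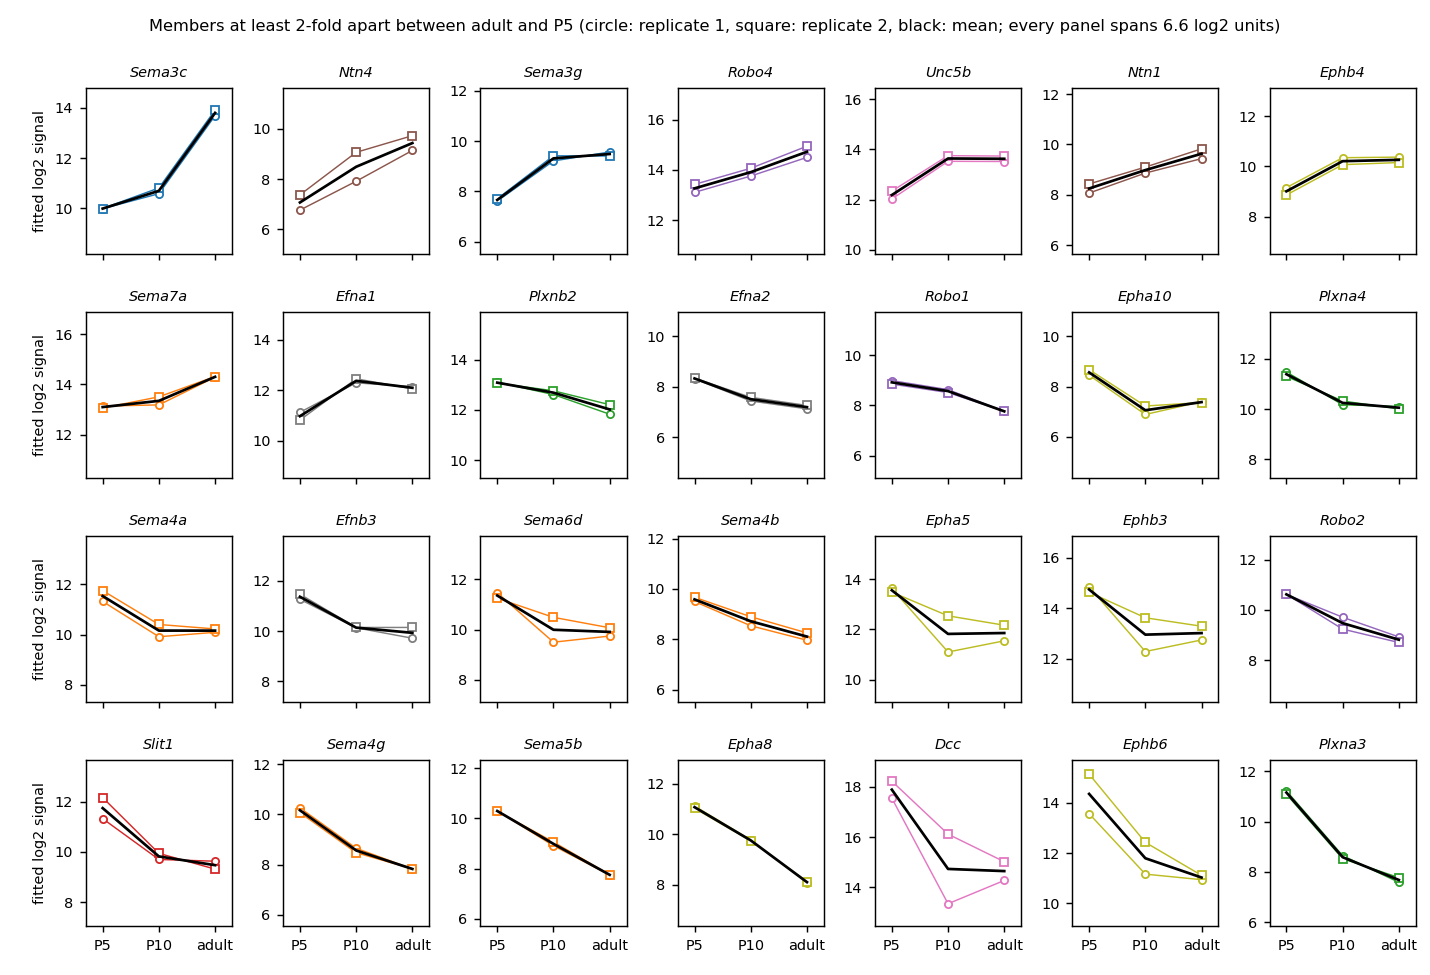
Fitted log2 signal by age for the 28 guidance genes at least 2-fold apart and called between adult and P5 microvessels, with replicate 1 as circles, replicate 2 as squares and their mean in black, every panel to the same scale. Sema3c rises after P10, Sema3g and Unc5b before it, and the P10 samples of Dcc, Epha5, Ephb3, Ephb6 and Ntn4 lie more than 1 log2 unit apart.

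Of the receptors, 5 rose, 21 fell and 6 did not pass of 32 tested in adult against P5 microvessels, with a median log2 ratio of -0.76, against 7, 18 and 11 of the 36 ligands and -0.46. Of all genes tested, 23% rose and 30.1% fell, against 15.6% and 65.6% of the receptors and 19.4% and 50% of the ligands. For the plexins the shares were 11.1% and 77.8%. Plexins, which carry the semaphorin signal across the membrane, gave 7 lower and 1 higher of 9, of which the lower ratio of Plxnd1 turned in sign with median centring. Plxna3, a partner of neuropilins for class 3 semaphorins, had 11.21 and 11.09 at P5, 8.64 and 8.52 at P10, and 7.58 and 7.77 in adults. The ages were well apart in both replicates, and adult over P5 was -3.47 ± 0.12 (SE, adjusted p = 0.000526), or 11.1-fold lower, with most of it before P10 (-2.57 ± 0.12 (SE, adjusted p = 0.00399)). Plxna4, which binds class 6 semaphorins and pairs with neuropilin-1, had 11.47 and 11.30 at P5, 10.17 and 10.32 at P10, and 10.10 and 10.01 in adults and -1.33 ± 0.12 (SE, adjusted p = 0.00169). A second Plxna4 probe, well above background in 2 P5, 5 P10 and 3 adult channels, was not kept, so this ratio rests on 1 probe. Plxnb2, a receptor of class 4 semaphorins, had 13.10 and 13.07 at P5, 12.61 and 12.76 at P10, and 11.83 and 12.21 in adults, and its adult samples were below all younger ones at -1.06 ± 0.13 (SE, adjusted p = 0.00376) over P5. With median centring in place of loess the Plxnb2 ratio was -0.42 and did not pass (adjusted p = 0.169).

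Plxnd1, the endothelial receptor of Sema3e, had 13.60 and 13.57 at P5, 13.82 and 13.93 at P10, and 13.03 and 13.06 in adults. Adult samples lay below all others, at -0.83 ± 0.10 (SE, adjusted p = 0.00932) over P10, where a second probe gave -0.79 (adjusted p = 0.0136 over all kept probes). Against P5 the adult ratio was -0.54 ± 0.10 (SE, adjusted p = 0.0103), and this direction turned to 0.11 (adjusted p = 0.711) with median centring. That scaling also moved the steps of Plxnd1 in limma. P10 over P5 went from 0.29 (adjusted p = 0.0671) to 1.05 and passed (adjusted p = 0.0139), and adult over P10 was -0.94 and did not (adjusted p = 0.067). Plxnb3, a Sema5a receptor, was the 1 plexin that rose in the adult against P5, with 7.86 and 8.67 at P5, 7.85 and 8.12 at P10, and 8.80 and 9.39 in adults. Its ratio was 1.11 ± 0.15 (SE, adjusted p = 0.0132) over P10 and 0.83 ± 0.15 (SE, adjusted p = 0.0105) over P5.

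Plxna2, a receptor of Sema6a, was lowest at P10, with 11.50 and 11.77 at P5, 10.84 and 10.98 at P10, and 11.56 and 11.86 in adults. Adult over P10 was 0.80 ± 0.10 (SE, adjusted p = 0.0108) and P10 over P5 was -0.72 ± 0.10 (SE, adjusted p = 0.0099), while adult and P5 samples overlapped. Neither step of Plxna2 passed with median centring, which gave 0.78 (adjusted p = 0.131) for adult over P10 and -0.08 (adjusted p = 0.812) for P10 over P5. Plxna1 (-0.81), Plxnc1 (-0.76), the receptor of Sema7a, and Plxnb1 (-0.70), the receptor of Sema4d, fell in adult against P5 microvessels. The replicate ratios of Plxnb1 were -0.87 and -0.52. A second Plxnc1 probe gave -0.28, which did not pass (adjusted p = 0.0977 over all kept probes).

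The 4 Robo receptors split by member. Robo4, which is found mainly on endothelium, rose in both steps, with 13.11 and 13.42 at P5, 13.76 and 14.06 at P10, and 14.50 and 14.94 in adults. The 3 ages did not overlap, and adult over P5 was 1.45 ± 0.10 (SE, adjusted p = 0.001), or 2.74-fold. Robo1 and Robo2 are Slit receptors of axons, and Robo1 is also among the guidance genes known from endothelium. Both were lower in adult than in P5 microvessels under all 9 settings. The levels of Robo1 were 8.98 and 8.85 at P5, 8.62 and 8.51 at P10, and 7.76 and 7.76 in adults, with -1.15 ± 0.10 (SE, adjusted p = 0.00154) for adult over P5. Robo2 had 10.62 and 10.62 at P5, 9.71 and 9.24 at P10, and 8.93 and 8.71 in adults, with -1.80 ± 0.14 (SE, adjusted p = 0.0013), and a second probe fell by 1.32. Both were called lower in each step too, but the P10 over P5 ratio of Robo1 (-0.35, adjusted p = 0.0442) passed under 4 of 9 settings and was -0.12 with the background fitted on every spot. The adult over P10 ratio of Robo2 (-0.66, adjusted p = 0.0409) passed under 2 of 9. Robo3, known from commissural axons, was lowest at P10, where P10 over P5 was -0.74 (adjusted p = 0.0128) and adult over P10 was 0.51 (adjusted p = 0.0472). The adult over P10 ratio of Robo3 passed under 3 of 9 settings.

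Each netrin receptor tested was called in adult against P5 microvessels, with 1 of 5 higher and 4 lower, of which Unc5a turned in sign with median centring. That is 20% and 80%, against 23% and 30.1% of all genes tested. Unc5b, the endothelial Unc5 receptor, had 12.03 and 12.34 at P5, 13.53 and 13.75 at P10, and 13.52 and 13.73 in adults. P10 and adult samples overlapped and stood above P5, with 1.45 ± 0.10 (SE, adjusted p = 0.00399) for P10 over P5 and 1.44 ± 0.10 (SE, adjusted p = 0.000962) for adult over P5. Unc5a was lowest at P10, with 11.46 and 11.44 at P5, 9.89 and 10.22 at P10, and 11.01 and 10.97 in adults. Its P10 over P5 ratio was -1.39 ± 0.13 (SE, adjusted p = 0.00541) and its adult over P10 ratio 0.93 ± 0.13 (SE, adjusted p = 0.0145), whereas adult over P5, at -0.46 ± 0.13 (SE, adjusted p = 0.0366), turned to 0.12 (adjusted p = 0.641) with median centring. Neo1, a receptor of netrins and repulsive guidance molecules, fell after P10 (-0.79 ± 0.10 (SE, adjusted p = 0.0104) for adult over P10). Unc5c fell by 0.39 on the log2 scale (adjusted p = 0.0428), and its second probe gave 0.02 (adjusted p = 0.898 over all kept probes).

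Dcc, the netrin receptor of axon attraction, gave a large but uncertain decrease. Its brightest probe had 17.55 and 18.22 at P5, 13.35 and 16.12 at P10, and 14.28 and 15.02 in adults, so that the P10 samples were nearly 3 log2 units apart. The replicate ratios of adult over P5 were -3.27 and -3.20 and those of P10 over P5 were -4.20 and -2.11. The fit gave -3.24 ± 0.54 (SE, adjusted p = 0.00829) for adult over P5. A second Dcc probe, at a mean log2 signal of 6.51 where the first had 15.49, gave an adult over P5 ratio of -0.30 that did not pass (adjusted p = 0.0623 over all kept probes), and the third was not well above background in any channel.

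Eph receptors, the tyrosine kinases that bind ephrins, gave 2 higher, 8 lower and 4 not called of 14 in adult against P5 microvessels. As shares these are 14.3% higher and 57.1% lower, against 23% and 30.1% of all genes tested. Ephb4, the receptor of veins, had 9.16 and 8.86 at P5, 10.34 and 10.07 at P10, and 10.37 and 10.15 in adults. P10 and adult samples overlapped above P5, with 1.20 ± 0.09 (SE, adjusted p = 0.00431) for P10 over P5 and 1.25 ± 0.09 (SE, adjusted p = 0.00118) for adult over P5. A second Ephb4 probe rose by 0.59 (adjusted p = 0.0205 over all kept probes). Epha2, the receptor of Efna1, was highest at P10 as its ligand was, with 9.36 and 9.40 at P5, 10.38 and 10.63 at P10, and 9.81 and 10.36 in adults. Its P10 over P5 ratio was 1.13 ± 0.15 (SE, adjusted p = 0.00888), and adult over P5 was 0.71 ± 0.15 (SE, adjusted p = 0.0153). Adult over P10 did not pass in limma for Epha2 (-0.42, adjusted p = 0.13), as it did not for Efna1, so a decrease after P10 was called for neither.

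Ephb6 and Epha8 fell most of the Eph receptors. Ephb6, which lacks kinase activity, had 13.57 and 15.14 at P5, 11.16 and 12.43 at P10, and 10.94 and 11.11 in adults, and its P5 samples, though far apart, lay above all others. Adult over P5 was -3.32 ± 0.34 (SE, adjusted p = 0.00245), or 10-fold lower, with replicate ratios of -2.62 and -4.02. A second Ephb6 probe, at a mean log2 signal of 6.70 where the first had 12.15, was too dim to be kept. It was well above background in 3 P5, 3 P10 and 4 adult channels, so the Ephb6 ratio rests on 1 probe. Epha8 fell in both steps with close replicates, at 11.12 and 11.04 at P5, 9.78 and 9.74 at P10, and 8.08 and 8.12 in adults, and had -2.98 ± 0.10 (SE, adjusted p = 0.000526) for adult over P5 and -1.66 ± 0.10 (SE, adjusted p = 0.00241) for adult over P10.

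Ephb3, Epha5 and Epha10 fell before P10. Ephb3 had 14.85 and 14.64 at P5, 12.28 and 13.62 at P10, and 12.74 and 13.29 in adults and Epha5 had 13.63 and 13.48 at P5, 11.11 and 12.54 at P10, and 11.55 and 12.17 in adults, and in both the P10 sample of replicate 1 was lower than that of replicate 2 by more than 1 log2 unit. Adult over P5 was -1.73 ± 0.36 (SE, adjusted p = 0.0153) for Ephb3 and -1.70 ± 0.37 (SE, adjusted p = 0.0169) for Epha5. A second Epha5 probe gave -1.75 (adjusted p = 0.000603 over all kept probes). Epha10, a receptor without kinase activity, had 8.45 and 8.67 at P5, 6.89 and 7.22 at P10, and 7.40 and 7.36 in adults and -1.18 ± 0.13 (SE, adjusted p = 0.00266), and its second probe gave -0.07 (adjusted p = 0.572 over all kept probes). With the background fitted on every spot, the adult over P5 ratio was -1.62 for Epha5 (adjusted p = 0.0505) and -1.04 for Epha10 (adjusted p = 0.056).

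Among the other Eph receptors, Ephb1 (-0.94), Epha7 (-0.80) and Ephb2 (-0.75) fell in adult against P5 microvessels. Epha4, which binds ephrins of both classes, was lowest at P10, with 9.82 and 9.73 at P5, 9.37 and 9.46 at P10, and 9.85 and 9.93 in adults. Adult over P10 was 0.47 ± 0.10 (SE, adjusted p = 0.0423), and P10 over P5 was -0.35 ± 0.10 (SE, adjusted p = 0.0474), which turned to 0.12 (adjusted p = 0.661) with median centring. For Epha4, adult over P10 passed under 4 of 9 settings and P10 over P5 under 3 of 9. Epha3 (-0.55, adjusted p = 0.0508), Epha1 (0.21, adjusted p = 0.193) and Epha6 (0.27, adjusted p = 0.118) did not pass for adult over P5 or in either step.

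The order of the changes in time was read from both steps. In P10 against P5 microvessels, 11 members rose and 33 fell of 68, where 41.2% of all genes were called, 18.2% higher and 23% lower. The median log2 ratio was -0.40, against -0.06 over all genes. In adult against P10 microvessels, 10 rose and 14 fell, where 17.5% of all genes were called, 9.1% higher and 8.42% lower, with a median of -0.08 against -0.01. At least 2-fold, 6 members rose and 16 fell in P10 against P5, where 2.87% of all genes were higher and 9.11% lower by this rule. In adult against P10, 2 rose and 2 fell by it, where 2.69% of all genes were higher and 2.73% lower. Levels did not overlap for 56 members in P10 against P5 (82.4%, against 62% of all genes) and for 43 in adult against P10 (63.2%, against 44.8%). These comparisons share the P10 samples, and adult over P5 shares samples with both.

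By the calls of both steps, 7 members fell in both (Plxna3, Sema5b, Sema4g, Epha8, Robo2, Sema4b and Robo1) and 4 rose in both (Sema3c, Ntn4, Robo4 and Ntn1). A further 22 fell from P5 to P10 and passed no later test, and 7 rose in that step alone. From P10 to adult alone, 7 fell (Plxnd1, Slit2, Neo1, Plxnb2, Efna4, Sema6a and Ntn3) and 2 rose (Sema7a and Plxnb3). The 4 members Plxna2, Unc5a, Robo3 and Epha4 fell to P10 and rose to adult, and 15 passed in neither step. Such courses were not counted over all genes tested, so these counts describe the members alone. They also rest on calls that not every setting gave. Adult over P10 passed under 7 of 9 settings for Robo4, and under 6 for Ntn1, Ntn4, Plxna3 and Sema4g. It passed under 5 for Sema4b and Efna4, and under 4 for Sema6a, Ntn3, Plxnb2 and Epha4. The P10 over P5 ratio of Sema3c passed under 6 of 9. The age with the highest mean level was P5 for 41 of 68 members, P10 for 10 and adult for 17, which is 60.3%, 14.7% and 25%, against 46.6%, 21.9% and 31.4% of all genes tested.

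Step calls depended on how the arrays were corrected. With the background fitted on every spot, no member passed in P10 against P5 in limma, where 41 had an unadjusted p below 0.05, and 1 passed in adult against P10. Over all 21941 genes tested, that setting called 0 in P10 against P5, and 154 higher and 103 lower in adult against P10. Median centring left 13 higher and 19 lower in P10 against P5 (40.6% of the calls higher, against 25% with loess), while the median of all genes moved from -0.06 to 0.12. Over all genes tested it called 5690 higher and 3771 lower there, so that 60.1% of the calls were higher, against 44.2% with loess. In adult against P10 it left 8 members called, with 613 higher and 666 lower over all genes tested. Without the 2 arrays that held spots with a faulty background (the P10/adult array of replicate 1 with exchanged dyes, and in replicate 2 the P5/P10 array), 37 members passed in P10 against P5 and 14 in adult against P10. Over all 21785 genes tested there, 2308 were higher and 3317 lower in P10 against P5, and 1033 higher and 850 lower in adult against P10. In adult against P5, 30 of the 51 called members, 11 higher and 19 lower, passed under all 9 settings. Median centring ended 14 of the 51 calls, and the background fitted on every spot 15. Of the 21 calls lost under any setting, Epha10, Epha5, Sema6d and Plxnb2 were at least 2-fold lower, and 17 were under 2-fold: Efna4, Efna5, Epha7, Ephb1, Ephb2, Neo1, Ntn3, Plxnb1, Plxnb3, Plxnd1, Sema3b, Sema3f, Sema4d, Sema6a, Slit2, Unc5a and Unc5c.

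**Figure D3:**
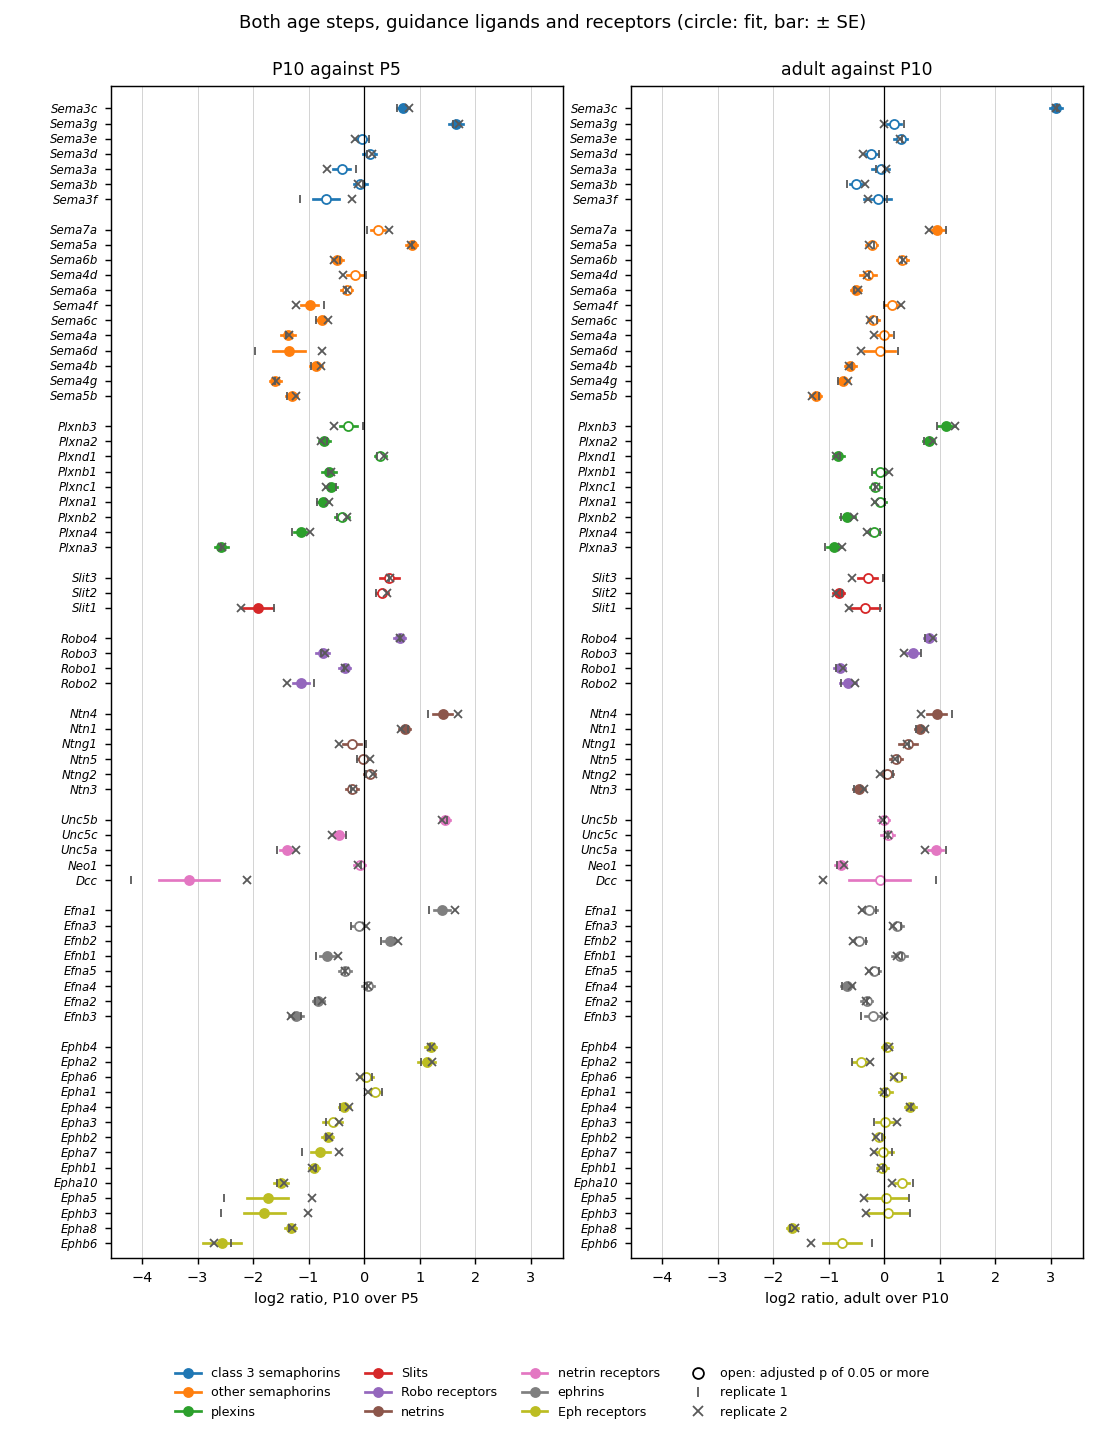
Log2 ratios of P10 over P5 (left) and adult over P10 (right) for the 68 guidance genes, with the fitted value as a circle, its standard error as a bar and the 2 replicates as small marks. The left panel holds 44 filled circles, 33 of them left of 0, and the right panel 24, with Sema3c at 3.10 apart from all others.

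Guidance genes known from endothelium were counted apart. Of 24 such members, listed with earlier results of these data known, 10 rose and 8 fell in adult against P5 microvessels, with a median log2 ratio of 0.14. These are 41.7% and 33.3% of the list, against 23% and 30.1% of all genes tested, so the share that fell lay near that of all genes. In P10 against P5 the counts were 10 and 7 (41.7% and 29.2%, against 18.2% and 23% of all genes), and in adult against P10 they were 7 and 4 (29.2% and 16.7%, against 9.1% and 8.42%). The genes that rose in adult against P5 were Sema3c, Ntn4, Sema3g, Robo4, Unc5b, Ntn1, Ephb4, Sema7a, Efna1 and Epha2, and those that fell were Ephb3, Sema6d, Robo1, Sema6a, Sema3f, Plxnb1, Plxnd1 (whose sign turned with median centring) and Slit2. The list was not set against the other members by a test.

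Cell type markers moved over the same ages. All 20 endothelial markers, of which Robo4 is also a guidance receptor, were higher in adult than in P5 microvessels, with a median log2 ratio of 1.70, and so were 8 of 9 pericyte and 5 of 7 smooth muscle markers (medians 1.40 and 2.42). Pecam1, an adhesion protein of endothelial junctions, had 8.74 and 9.49 at P5, 10.17 and 10.58 at P10, and 10.48 and 11.18 in adults. The summed linear signal of the endothelial list was 138800 and 148100 at P5, 314000 and 377300 at P10, and 730800 and 824300 in adults. Of the 12 guidance genes that rose, Sema3c, Ntn4 and Sema3g were above the endothelial median of 1.70 and the other 9 below it.

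Markers of immature neurons and oligodendrocyte precursors ran with the guidance genes that fell. Of 12 immature neuron markers, 10 fell and none rose in adult against P5, with a median log2 ratio of -1.94 and summed signals of 33700 and 33290 at P5, 16700 and 15750 at P10, and 9632 and 10620 in adults. Stmn2, a microtubule regulator of growing axons, had 13.46 and 13.71 at P5, 12.80 and 12.88 at P10, and 11.84 and 12.25 in adults. All 7 oligodendrocyte precursor markers fell (median -0.98), with summed signals of 8538 and 9446 in adult microvessels and 17250 and 23460 at P5. Mature neuron markers did not fall as a list, with 5 higher and 1 lower of 11 in the adult, and myelin markers gave 7 higher and 1 lower of 10.

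Red blood cell markers fell most, with 8 of 8 lower in adult than in P5 microvessels and a median of -4.86. Their summed signal was 2829000 and 4208000 at P5, 386400 and 627600 at P10, and 117200 and 118900 in adults. Fibroblast markers gave 2 higher and 5 lower of 8, microglia 4 lower and none higher of 9, and astrocytes 4 higher and 3 lower of 10. The arrays give no true 0, so no marker can be called absent. What part these cells had in the guidance genes' ratios was not tested.

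**Figure D4:**
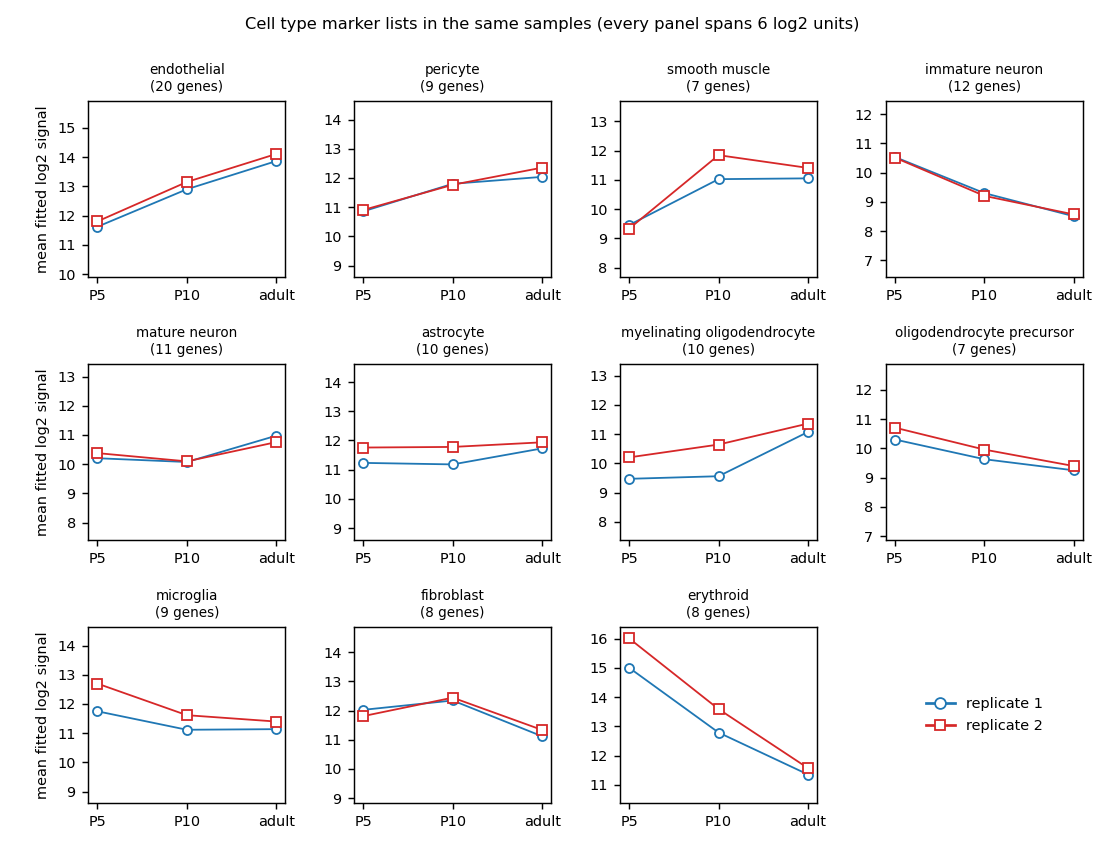
Mean fitted log2 signal of 11 cell type marker lists at P5, P10 and adult, with replicate 1 as circles and replicate 2 as squares, every panel to the same scale. The endothelial and pericyte lists rise with age, and the immature neuron, oligodendrocyte precursor and red blood cell lists fall.

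Most co-receptors and binding partners that passed were lower in the adult. Of 24 measured, 2 rose and 15 fell in adult against P5 microvessels, with a median log2 ratio of -0.49. These are 8.33% and 62.5% of the list, against 23% and 30.1% of all genes tested, whose median was -0.09, and 17.6% and 57.4% of the guidance genes themselves. Nrp1, the neuropilin that holds class 3 semaphorins and VEGF, was the 1 partner at least 2-fold higher, at 1.09 ± 0.10 (SE, adjusted p = 0.00175). Those at least 2-fold lower were Islr2 (-2.83), Gpc1 (-2.20), Mcam (-1.43), Dscaml1 (-1.38), Flrt3 (-1.38), L1cam (-1.25) and Dscam (-1.03), most of them cell surface proteins of neurons. Mcam, an adhesion protein of young endothelium and pericytes, had the largest error of these (SE 0.31, adjusted p = 0.0165). Kdr, the VEGF receptor that Sema6d can engage together with Plxna1, and Itgb1, an integrin bound by Sema7a, were at least 2-fold higher in P10 than in P5 microvessels, and Flrt1 was lower (-1.34).

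Cytoplasmic effectors went both ways, with 17 higher and 15 lower of 50 in adult against P5 microvessels and a median of 0.03. These are 34% and 30% of the list, against 23% and 30.1% of all genes tested, so the share that fell was that of all genes. Of the collapsin response mediators, which act below semaphorin receptors in neurons, Dpysl2 did not pass (-0.13, adjusted p = 0.4). The other 4 were at least 2-fold lower: Dpysl3 at -3.87 ± 0.13, Crmp1 at -2.95 ± 0.11, Dpysl4 at -2.78 ± 0.13 and Dpysl5 at -2.00 ± 0.25 (SE). The Slit-Robo GTPase activators Srgap2 (-1.78), Srgap1 (-1.60) and Srgap3 (-1.34) fell too, as did Ablim3 (-2.14), Evl (-1.34) and Limk2 (-1.20). At least 2-fold higher were Kalrn (2.93 ± 0.19), a GTPase exchange factor, Ablim1 (2.29), Rras (1.80), a target of plexin GTPase activity, Nck1 (1.57) and Sipa1l1 (1.34), with Rap1b, Rac1 and Tiam1 from 1.03 upward. After P10, Dpysl3 (-2.42), Crmp1 (-1.80), Srgap1 (-1.09) and Dpysl4 (-1.04) were at least 2-fold lower in the adult. The 5 effectors at least 2-fold higher there included Kalrn (1.99), Sipa1l1 (1.49), Ablim1 (1.25) and Pak1 (1.14). In P10 against P5, 28% of the effectors were higher and 38% lower, against 18.2% and 23% of all genes tested.

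How far the ratios hold across probes could be read for the 17 members with more than 1 kept probe. No member had probes called in opposite directions for adult over P5. For Sema3c, Ntn1, Ephb4, Sema5b, Robo2, Epha5 and Plxnd1 a second probe was called the same way, at 2.90 for Sema3c and -2.06 for Sema5b. For Dcc, Epha10, Sema6d, Plxnc1 and Unc5c the dimmer probe did not pass. Epha7 had 1 further probe called (-0.76) and 1 not (-0.24). In Sema3a the brighter probe did not pass, and the dimmer was not well above background in any adult channel, so no ratio is given for it. Efna3, Efnb2 and Ntng1 passed with neither probe. No member probe was saturated in any channel.

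**Figure D5:**
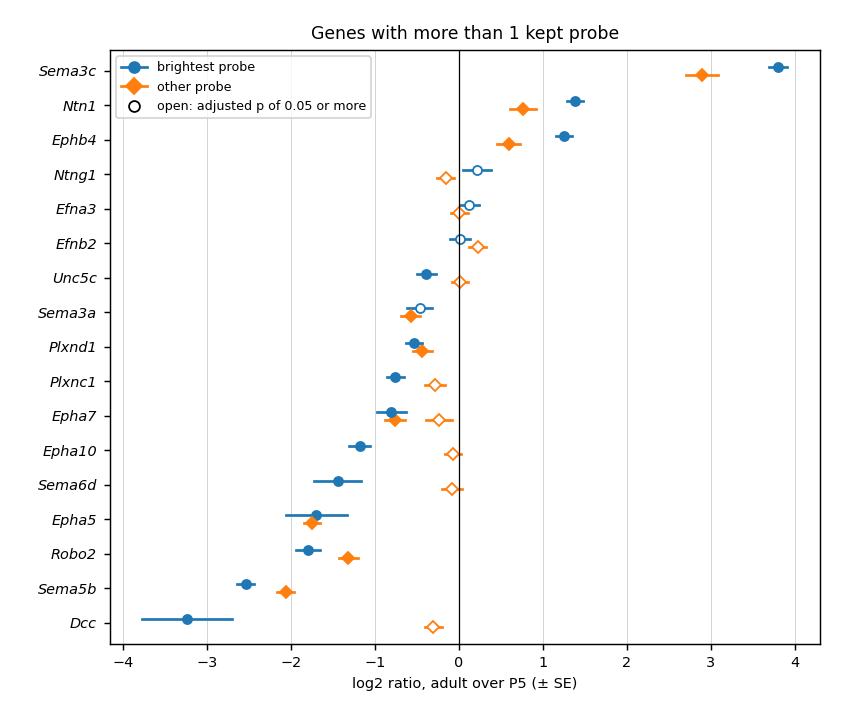
Log2 ratio of adult over P5 (circles and diamonds, with standard errors as bars) for each kept probe of the 17 guidance genes with more than 1, the brightest probe as a circle and the others as diamonds. Filled marks passed the test, and the probes of Dcc lie farthest apart, at -3.24 and -0.30. The dimmer Sema3a probe is drawn at its fitted ratio, although no adult channel was well above background.

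The other 3 members could not be tested. Sema4c, a ligand of Plxnb2, was well above background in 16 of 16 channels, but its spots were marked as outliers on 3 of 4 arrays of replicate 1, and replicate 2 alone gave log2 ratios of -1.24 for adult over P5, -1.02 for P10 over P5 and -0.22 for adult over P10. Unc5d was well above background in 2 of 16 channels and the antisense RNA Plxna4os1 in 1 of 16, and neither was kept.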

How the data were processed

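Each array's file is the output of Agilent Feature Extraction as the authors deposited it, of version 10.5.1.1 by the file headers and 12.6 by the submitters' processing notes. It holds median spot and background signals, which per the file headers are linear intensity values, and a log ratio that per the file headers is a log10 of Cy5 over Cy3. The members and lists were chosen with earlier results of these data known.

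In R 4.3.3 with limma 3.58.1, the deposited intensity values were background-corrected by normexp (offset 50). Spots more than 100 below their background (4 on the P10/adult array of replicate 1 with exchanged dyes, 7 in replicate 2 on the P5/P10 array) were given the median background of their array for this and left out, as were outlier and control spots. Loess (span 0.3) gave log2 ratios, and spots of 1 probe were averaged. Symbols came from a RefSeq table by accession (27427 of 39429 probes). A probe was kept if all channels of 1 or more ages were well above background (27190 probes), and the brightest kept probe stood for its gene. Per slide, least squares gave 2 age differences and a dye term, and a fitted log2 level is the slide's mean signal plus the age's value. limma fitted age and replicate, which is the slide (2 residual degrees of freedom, 2.91 prior ones), and adjusted p by Benjamini-Hochberg over 21941 genes. A call is an adjusted p below 0.05. The fit was tested on simulated data.

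Every member is named. Values per replicate are given for members at least 2-fold apart and called in any comparison and for those known from endothelium. Apart from Dpysl2, other genes are named from the partner and effector lists only where called and at least 2-fold apart, or as markers. Alternatives changed the background correction, scaling, probe filter, probe choice, arrays and replicate block. The number of arrays limits the precision.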

Additional observations from a re-analysis of the deposited data

How the results depend on the processing

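Of 952 recomputed ratios of members called as reported, 747 kept their direction and the call, 202 kept the direction but lost the call, and 3 turned in sign and lost it. Of 680 recomputed ratios of members not called, 20 gained a call in the same direction, 604 stayed uncalled with the same sign, and 56 stayed uncalled with the opposite sign. The 3 called ratios turned under median centring in place of loess: Plxnd1 to 0.11 and Unc5a to 0.12 for adult over P5, and Epha4 to 0.12 for P10 over P5, none of them called there. Median centring also gave 25 members lower in adult than in P5 microvessels, 8 called in adult against P10 (4 higher and 4 lower), and 19 lower in P10 than in P5. Over all genes tested it called 5019 lower in adult than in P5, 613 higher and 666 lower in adult against P10, and 3771 lower in P10 than in P5. With normexp fitted on every spot, the faulty ones included, 25 members were lower in adult than in P5, 1 was called in adult against P10 (1 higher and 0 lower, with 24 at an unadjusted p below 0.05 in limma), and 0 in P10 against P5 (0 higher and 0 lower, with 41 at an unadjusted p below 0.05). Of all 21941 genes tested, 2769 were lower there in adult than in P5, 0 were called in P10 against P5, and 154 were higher and 103 lower in adult against P10. Without the 2 arrays that held those spots, 14 members were called in adult against P10, 7 of them lower. Of the 21785 genes tested there, 1033 were higher and 850 lower. The cause of these differences was not tested. Of the 28 members at least 2-fold apart and called in adult against P5, 25 were still called with every spot fitted, 27 with median centring, and 28 under each of the other 6 settings that have a test. With no replicate block, where single-channel levels were fitted by age alone, 44 members were called in adult against P5, 12 in adult against P10 (7 higher and 5 lower) and 33 in P10 against P5. Over all genes tested, 3887 were higher and 4514 lower there in adult against P5. The counts were 963 and 812 in adult against P10, and 2367 and 2914 in P10 against P5. Leaving out either replicate leaves values with no test, and no member's called ratio turned in sign. With 2 replicates per age, small differences cannot be resolved, and dim members such as Ntn5 are limited by the background.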
